A study of Homo sapiens with 2 samples.

Results

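Replication-dependent histone genes supply the core histones H2A, H2B, H3 and H4 and the linker histone H1 that package newly copied DNA in S phase. Their mRNAs usually lack a poly(A) tail and end in a stem-loop bound by SLBP, and many near-identical gene copies lie side by side in clusters on chromosomes 6 and 1. The members described here are the probe sets whose gene symbol in the platform annotation belongs to the former HIST1H, HIST2H, HIST3H or HIST4H families. The rule found 55 probe sets among 22011. Of these, 50 name 1 gene each and are the members proper, out of 14232 genes with a probe set of their own, and 5 are shared between genes and are given apart. The 50 genes comprise 6 of type H1, 11 of H2A, 13 of H2B, 9 of H3 and 11 of H4.

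Expression was measured in SUDHL6 and HT, established cell lines of human diffuse large B cell lymphoma, a cancer of mature B cells. Neither line was treated, and both grew in the same serum-containing medium, per the labels. Affymetrix exon arrays were used, with 1 array for each line, so no spread between cultures is known and no test was made between the lines. The title of the series places the arrays in a study of an inhibitor of PRC2, the Polycomb complex that methylates histone H3. How the RNA was primed for labelling is not given in the sources used here. This bears on mRNAs without a poly(A) tail.

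All values are log2 expression after RMA, and every difference is SUDHL6 minus HT for the same probe set. Levels of different probe sets are not set against each other. The dim level is the 95th percentile of 225 olfactory receptor genes, taken as unexpressed. It was 3.81 for SUDHL6 and 4.11 for HT, and a gene below it in both lines is called dim. A gene reached it where its higher value was at or above the level of that line. A fold is written as "at least" where the lower value lay below the dim level and was replaced by it. B cell genes were present in both lines: all 7 of the 8 listed markers with a value reached the dim level, with MS4A1, which encodes CD20, at 11.33 in SUDHL6 and 8.75 in HT. The lowest of the 7 was CD79B, at 5.55 in SUDHL6 and 5.23 in HT. Of 12 markers of T, NK and myeloid cells, 4 reached the dim level. NKG7 was above it in both lines, at 4.91 in SUDHL6 and 5.30 in HT. TYROBP (4.27 in SUDHL6, 4.08 in HT), GNLY (4.26 and 3.81) and CD5 (3.84 and 3.77) reached it only in SUDHL6. The other 8, among them CD3D, CD3E, CD14 and LYZ, were dim.

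The promoters of these genes show what the histone types share in sequence, and those of 7 genes are shown as examples. Each is the 200 bases before the start of transcription in RefSeq, build GRCh38.p14, written 5′ to 3′ on the strand of the gene. Capitals mark the motifs, which were searched on both strands. The TATA box was searched as TATAAA. For the CCAAT box, whose other strand reads ATTGG, the letters of its name were used. The octamer bound by OCT factors was searched as ATTTGCAT. Letters of the cell cycle element of H4 promoters were searched as GGTCCG. The H1 box of linker histone promoters was searched as AAACACA. H3C3, H2BC7, H2AC8 and H4C13 had the largest differences among the genes reaching the dim level. H3C2, H1-3 and H4C5 are shown as a further H3, H1 and H4 gene. The stretches lie at chr6:26045184-26045383, plus strand, for H3C3, at chr6:26199316-26199515, plus strand, for H2BC7, and at chr6:26216721-26216920, plus strand, for H2AC8. Those of the other four are chr6:27873535-27873734, minus strand, for H4C13, chr6:26032100-26032299, minus strand, for H3C2, chr6:26234988-26235187, minus strand, for H1-3, and chr6:26204410-26204609, plus strand, for H4C5.
H3C3: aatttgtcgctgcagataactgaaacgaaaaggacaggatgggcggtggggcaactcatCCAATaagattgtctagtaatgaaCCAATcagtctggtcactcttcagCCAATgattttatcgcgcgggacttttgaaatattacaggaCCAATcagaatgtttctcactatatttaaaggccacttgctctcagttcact
H2BC7: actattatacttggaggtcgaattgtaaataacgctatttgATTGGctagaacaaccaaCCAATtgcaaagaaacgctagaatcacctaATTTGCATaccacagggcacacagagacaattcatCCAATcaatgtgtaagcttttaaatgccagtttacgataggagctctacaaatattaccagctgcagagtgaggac
H2AC8: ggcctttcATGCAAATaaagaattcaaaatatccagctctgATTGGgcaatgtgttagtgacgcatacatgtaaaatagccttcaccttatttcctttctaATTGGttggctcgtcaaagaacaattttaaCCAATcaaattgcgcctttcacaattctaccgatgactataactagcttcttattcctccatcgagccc
H4C13: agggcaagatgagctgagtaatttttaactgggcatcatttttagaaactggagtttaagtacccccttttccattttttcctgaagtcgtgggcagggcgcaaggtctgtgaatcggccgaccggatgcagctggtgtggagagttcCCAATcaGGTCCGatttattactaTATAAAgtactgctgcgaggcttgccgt
H3C2: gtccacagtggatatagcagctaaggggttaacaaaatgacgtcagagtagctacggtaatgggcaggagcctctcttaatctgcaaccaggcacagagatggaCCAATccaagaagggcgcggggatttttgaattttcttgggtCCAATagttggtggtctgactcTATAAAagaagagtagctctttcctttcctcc
H1-3: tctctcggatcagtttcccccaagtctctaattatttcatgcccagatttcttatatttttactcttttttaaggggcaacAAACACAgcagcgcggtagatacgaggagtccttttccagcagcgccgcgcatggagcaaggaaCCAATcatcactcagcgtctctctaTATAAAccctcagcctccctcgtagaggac
H4C5: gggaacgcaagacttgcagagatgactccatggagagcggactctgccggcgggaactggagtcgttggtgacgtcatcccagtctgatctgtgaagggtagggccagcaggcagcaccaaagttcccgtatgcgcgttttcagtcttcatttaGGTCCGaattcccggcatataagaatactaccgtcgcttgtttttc

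Motif use followed the histone type. RefSeq promoter windows, 250 bases before to 50 after the start, were at hand for 45 of the 50 genes, and 27305 genes outside 1 chromosome not used here gave the background. The H1 box stood in 6 of 6 H1 promoters and in 0 of the 10 H2A, 13 H2B, 7 H3 and 9 H4 promoters, against 6.94% of all genes. The H4 element stood in 8 of 9 H4 promoters, against 13.39% of all genes, and also in H2BC21 and H3C7. The octamer stood in 8 of 10 H2A and 10 of 13 H2B promoters and in 0 of the other types, against 2.19% of all genes. The H2A and H2B counts overlap in part, since a head-to-head H2A and H2B gene share the DNA between them. A CCAAT box was found in every H1, H2A, H2B and H3 promoter and in 3 of 9 H4 promoters, against 39.72% of all genes. TATAAA was found in 29 of 45 histone promoters, against 13.99% of all genes. Hits of different motifs overlapped 2 times in the histone promoters. In the stretches shown, H3C3 has 4 CCAAT boxes and no TATAAA, while H3C2 has both. Only the exact letters were searched, so a TATA box spelled otherwise would be missed. The TATAAA in the full window of H2AC8 lies outside the stretch shown. A match describes these letters and shows no binding.

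**Figure D1:**
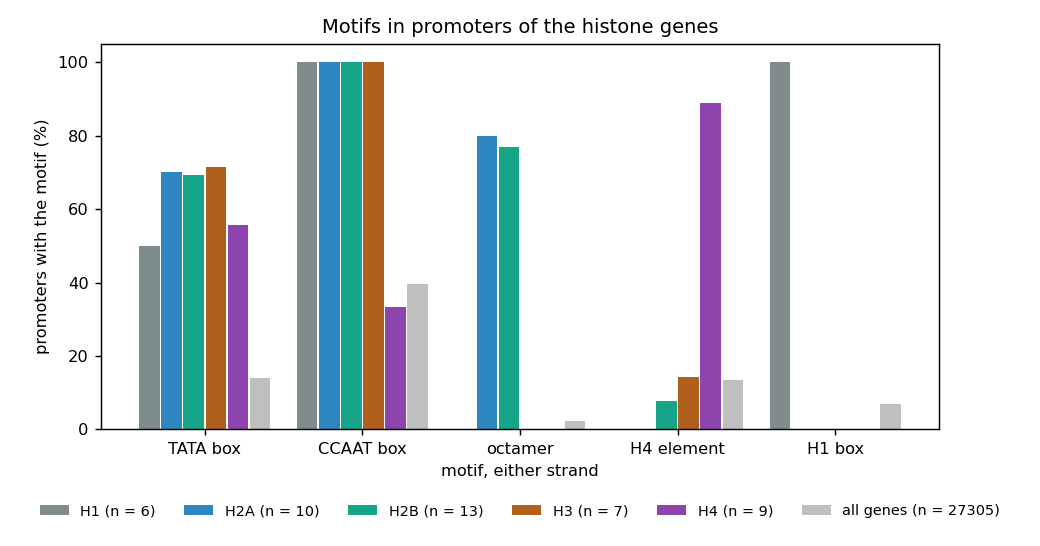
Share of promoters (%, vertical axis) that hold each motif on either strand, by histone type and for all genes, with the number of promoters in the legend. The H1 box stands at 100% for H1, the H4 element at 88.9% for H4, and the octamer at 80% for H2A and 76.9% for H2B.

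As a group the histone genes differed about as often as other genes. Of the 50, 37 reached the dim level, 31 in both lines, 4 in SUDHL6 only and 2 in HT only. A log2 difference of at least 1 was found for 2 genes higher in SUDHL6, H2BC7 and H2AC8 (5.3% of the 9405 genes reaching the dim level were higher there), and for 2 higher in HT, H3C3 and H4C13 (6.99% of the 9405). The 4 make up 10.8% of the 37, against 12.3% of all genes, which is near the background. At a difference of at least 1.5-fold, 13 of 37 (35.1%) counted, against 27.4% of all genes. Of the 13, 7 were higher in SUDHL6 (18.9% of the 37, against 11.2% of all genes) and 6 in HT (16.2%, against 16.1%). H2BC15 and H3C10, among the 13, lay under the dim level in 1 line, and with raised values, in which that level stands in for anything under it, they fell short of 1.5-fold. The other 11 (29.7% of the 37) still counted then, against 25.1% of all genes. The median difference of the 37 was 0.12, beside -0.05 for all genes reaching the dim level, whose 25th and 75th percentiles were -0.38 and 0.22. That median was -0.19 over all 50 members, dim ones included, against -0.04 over all 14232 genes. With raised values it was -0.01 over the 37, against -0.09 over all genes reaching the dim level. In cycling cultures, fewer cells in S phase and less histone mRNA per cell cannot be told apart.

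**Figure D2:**
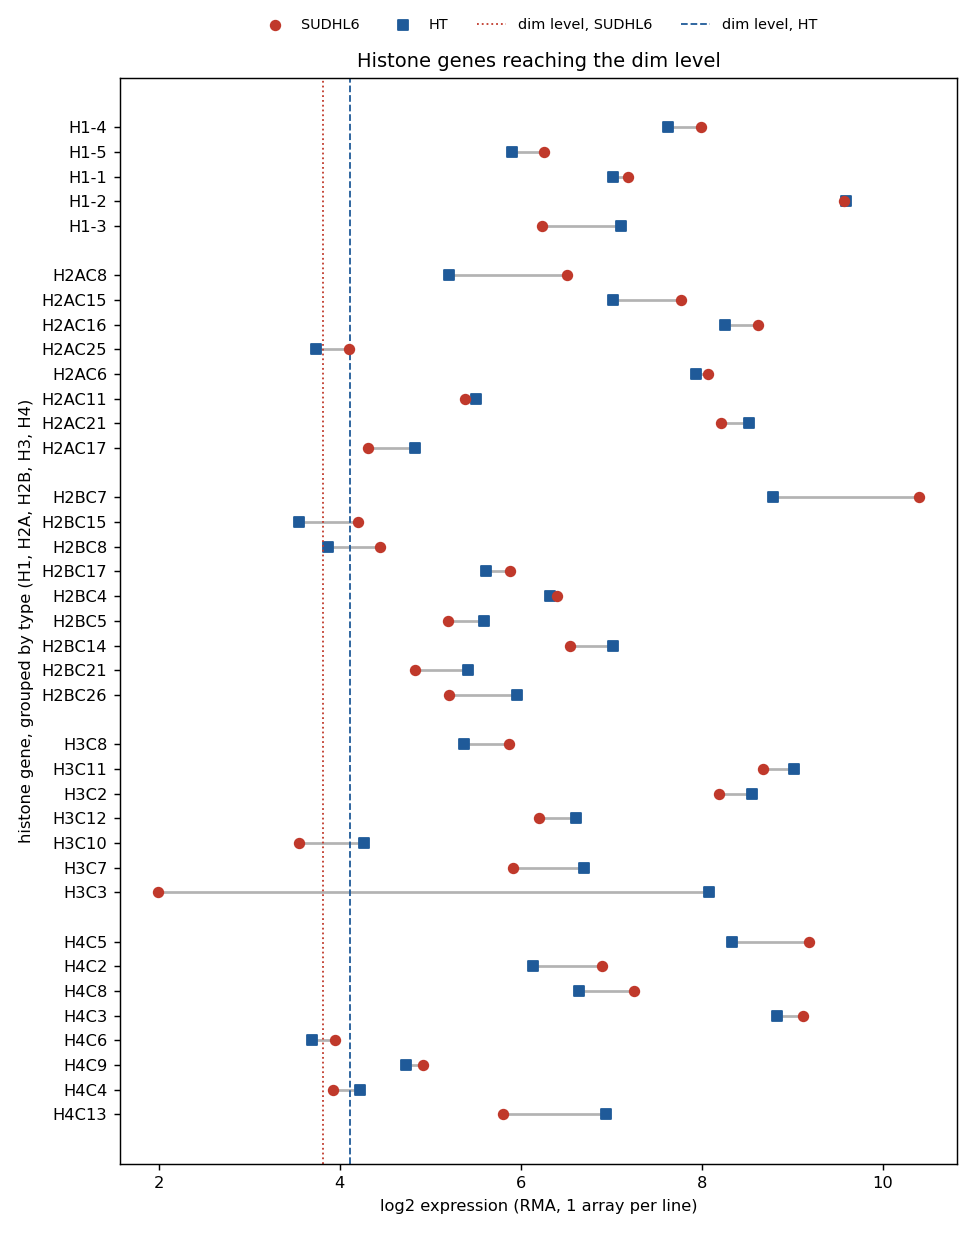
Log2 expression (horizontal axis) of the 37 histone genes reaching the dim level, grouped by type, with SUDHL6 as circles and HT as squares and a line joining the values of a gene. Dotted and dashed lines mark the dim levels of SUDHL6 (3.81) and HT (4.11), and H3C3 stands at 1.99 in SUDHL6 and 8.08 in HT.

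H3 genes leaned to HT. Of 7 H3 genes reaching the dim level, 6 had a lower value in SUDHL6 (53.5% of all genes did). The median difference of the 7 was -0.40, or -0.38 without H3C3. H3C3 stood apart from every other member, at 1.99 in SUDHL6 and 8.08 in HT. HT was thus at least 19.3-fold higher, with SUDHL6 under its dim level. H3C2 and H3C11, which encode the same H3 protein, differed little: H3C2 stood at 8.19 in SUDHL6 and 8.55 in HT, and H3C11 at 8.67 in SUDHL6 and 9.01 in HT. Both were above the dim level in each line. H3C7 was at 5.91 in SUDHL6 and 6.69 in HT, and H3C12 at 6.21 in SUDHL6 and 6.61 in HT. H3C10 lay close to the dim level and reached it only in HT, at 3.55 in SUDHL6 and 4.26 in HT, so its order is not established. H3C8 was the exception to the lean, at 5.87 in SUDHL6 and 5.37 in HT. The other H3 genes, H3C1 and H3C6, were dim.

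H4 genes leaned to SUDHL6, with 1 clear exception. Of 8 H4 genes reaching the dim level, 6 had a higher value in SUDHL6 (44.5% of all genes did), and the median difference was 0.27, or 0.29 without H4C13. H4C5 measured 9.18 in SUDHL6 and 8.33 in HT, which is 1.80-fold. H4C2 was 1.70-fold higher in SUDHL6, at 6.90 against 6.13 in HT, and H4C8 1.53-fold higher, at 7.25 against 6.64 in HT. These 3 were the H4 genes past 1.5-fold in that direction (37.5% of the 8, against 11.2% of all genes). In the other direction 1 was, H4C13 (12.5% of the 8, against 16.1% of all genes). Such counts are too small to set the type apart. H4C3 was at 9.12 in SUDHL6 and 8.83 in HT, and H4C9 at 4.92 in SUDHL6 and 4.73 in HT. H4C6 and H4C4 lay close to the dim level, H4C6 at 3.95 in SUDHL6 and 3.69 in HT and H4C4 at 3.92 in SUDHL6 and 4.22 in HT, so their order is not established. With raised values, the H4C6 difference turns and 5 of 8 remain above 0, against 40.6% of all genes. H4C13 ran the other way, at 5.80 in SUDHL6 and 6.94 in HT, 2.20-fold higher in HT. The H4 genes other than the divergent H4C7 encode the same protein. H4C1, H4C7 and H4C16 were dim. With 7 and 8 genes and 1 array per line, the contrast between H3 and H4 is a description.

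**Figure D3:**
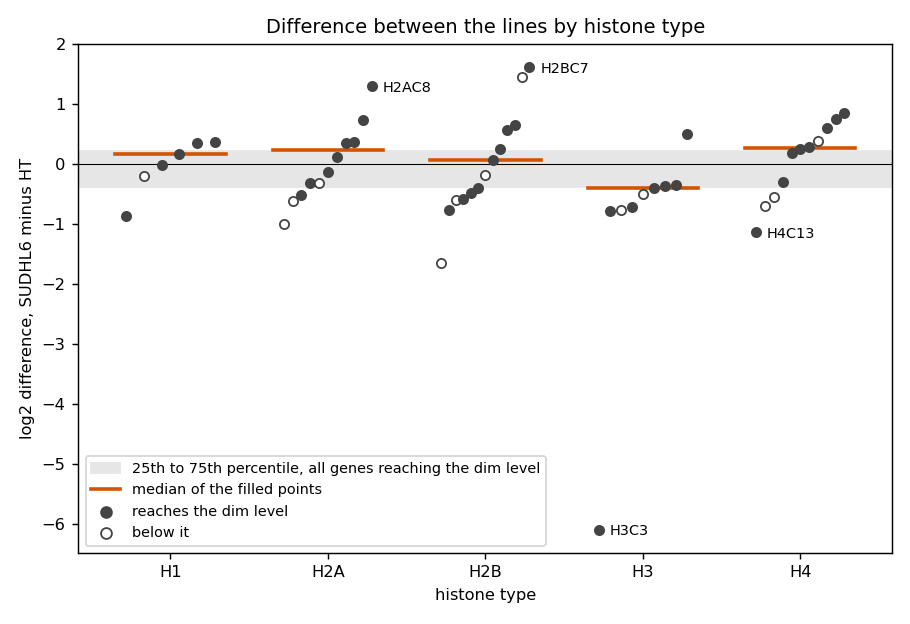
Log2 difference, SUDHL6 minus HT (vertical axis), of all 50 histone genes by type, with filled points for genes reaching the dim level, open points for genes below it, a bar at the median of the filled points and a grey band for the central range of all genes. The H3 median is -0.40 and the H4 median 0.27, and H3C3 lies at -6.09.

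H2B genes lay on both sides of no difference. The median of the 9 H2B genes reaching the dim level was 0.08, with 5 above 0 (44.5% of all genes were) and 4 below. The sign of this median is not settled, since it was -0.18 over all 13 and -0.16 with the dim level at the 99th percentile or with shared probe sets included. H2BC7 was the member furthest above HT in SUDHL6, at 10.40 in SUDHL6 and 8.78 in HT, 3.07-fold higher. H2BC8 measured 4.44 in SUDHL6 against 3.87 in HT (at least 1.26-fold), and H2BC15 measured 4.19 in SUDHL6 against 3.54 in HT (at least 1.06-fold). Both reached the dim level only in SUDHL6, so their differences have only a lower bound. H2BC4 was nearly equal, at 6.40 in SUDHL6 and 6.32 in HT, and H2BC17 stood at 5.87 in SUDHL6 and 5.62 in HT. On the HT side, H2BC5 was at 5.20 in SUDHL6 and 5.59 in HT, H2BC14 at 6.54 in SUDHL6 and 7.01 in HT, H2BC21 at 4.83 in SUDHL6 and 5.41 in HT and H2BC26 at 5.20 in SUDHL6 and 5.96 in HT. H2BC26 was 1.69-fold higher in HT, the furthest in that direction of the H2B genes that reached the dim level with a probe set of their own. Below the dim level in both lines were H2BC1, H2BC3, H2BC10 and H2BC11.

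H2A genes lay on both sides of no difference, with H2AC8 furthest toward SUDHL6. Of 8 reaching the dim level, 5 were above 0 and 3 below (44.5% of all genes were above 0), with a median of 0.24, or -0.12 over all 11. H2AC8 was 2.46-fold higher in SUDHL6, at 6.51 against 5.20 in HT, and H2AC15 was 1.68-fold higher, at 7.76 against 7.02 in HT. H2AC16 stood at 8.62 in SUDHL6 and 8.26 in HT, and H2AC6 at 8.06 in SUDHL6 and 7.94 in HT. H2AC25 reached the dim level only in SUDHL6, at 4.10 against 3.74 in HT. Its SUDHL6 value lay under the HT dim level, so its order is not established. With raised values 4 of 8 were above 0, against 40.6% of all genes. The other 3 were lower in SUDHL6: H2AC21 at 8.21 in SUDHL6 and 8.52 in HT, H2AC17 at 4.31 in SUDHL6 and 4.83 in HT, and H2AC11 at 5.38 in SUDHL6 and 5.50 in HT. All 3 were under 1.5-fold. H2AC1, H2AC4 and H2AC12 were dim.

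Of 5 linker histone genes reaching the dim level, 0 were past a difference of 1, against 12.3% of all genes, a count too small to set them apart. H1-3 was the furthest apart, at 6.23 in SUDHL6 and 7.10 in HT, 1.83-fold higher in HT. H1-4 stood at 7.99 in SUDHL6 and 7.62 in HT, and H1-5 at 6.25 in SUDHL6 and 5.90 in HT. These variants thus lay on opposite sides, although all bind linker DNA between nucleosomes. H1-1 was at 7.18 in SUDHL6 and 7.02 in HT, and H1-2 at 9.57 in SUDHL6 and 9.59 in HT, the smallest difference of all members. The median of the 5 was 0.16. The testis variant H1-6 was dim, as were the testis variants of the core histones, H2AC1 and H2BC1.

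In total 13 members were dim in both lines, between 1.63 and 3.56 in SUDHL6 and between 0.66 and 4.01 in HT. H2AC4 came nearest to it in HT, at 3.40 in SUDHL6 and 4.01 in HT. H2AC12 came nearest in SUDHL6, at 3.56, with 3.86 in HT. In this dim range, 2 genes differed by at least 1, H2BC3 (1.46) and H2BC10 (-1.64), and neither difference is counted. A dim gene need not be silent.

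Along chromosome 6 the 4 differences of at least 1 ran in both directions. The HIST1 cluster there held 45 members, in 4 blocks separated by gaps of over 200 kb in the gene order of RefSeq. The first block held the testis variants H2AC1 and H2BC1, both dim. The second held 28 genes, of which 20 reached the dim level, with a median difference of 0.21. Of these 20, 3 were past 1, H3C3, H2BC7 and H2AC8, against 12.3% of all genes. This count is too small to set the block apart. The members on either side of H3C3 were H2BC3, dim in both lines, and H1-2, nearly equal. H2BC7, H4C5, H2BC8 and H2AC8 followed each other in gene order, and each was higher in SUDHL6, by 1.62, 0.85, 0.57 and 1.30. This run was noticed in the data. H3C4 and H2AC7, which share a probe set given further on, stand directly before H2BC7 in that order. The third block had 4 genes, 2 of them reaching the dim level, with a median of 0.03. The fourth had 11, all reaching the dim level, with a median of -0.34, and 1 of them, H4C13, was past 1.

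**Figure D4:**
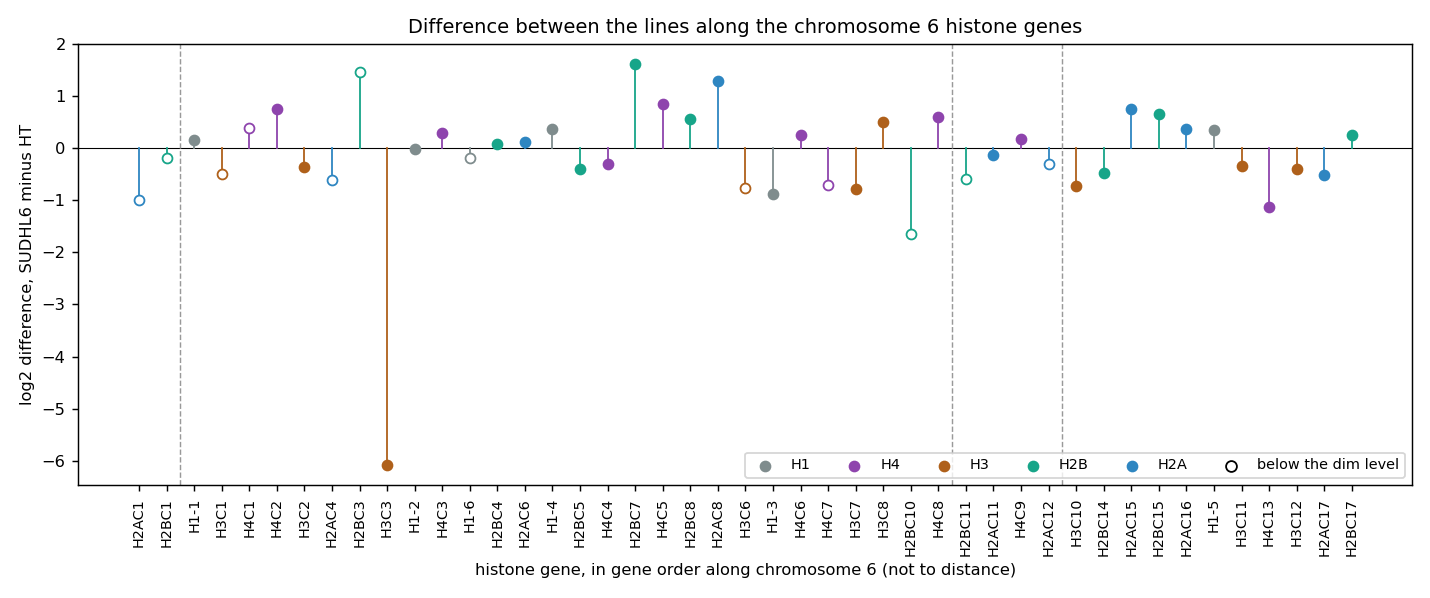
Log2 difference, SUDHL6 minus HT (vertical axis), of the 45 histone genes of chromosome 6 in gene order, coloured by type, with open points for genes below the dim level and dashed lines between the 4 blocks. H3C3 at -6.09 stands between the dim H2BC3 and H1-2 at -0.02.

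Outside chromosome 6, the HIST2 and HIST3 clusters of chromosome 1 had 4 members, all reaching the dim level. Of the 4, 3 were lower in SUDHL6 (53.5% of all genes were). The median of the 4 was -0.44, beside 0.16 for the 33 HIST1 members reaching the dim level. All 4 are H2A or H2B genes, whereas HIST1 holds every type, so these medians cover unlike sets. Other histone genes of chromosome 1, such as H3C14 and H4C14, had no probe set. The HIST1 median was -0.12 over all 45 members and 0.08 with raised values, so its sign is not settled. None of the 4 on chromosome 1 differed by at least 1, against 12.3% of all genes, a count too small to set them apart. H2BC21, H2AC21 and H2BC26 were below 0, and H2AC25, whose order is not established, was above it. H4C16 of chromosome 12, the HIST4 member, was dim, with a difference of -0.55.

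Pairs of an H2A and an H2B gene lying head to head were sought among members with a promoter window. Pairs with a shared probe set are thus left out. Of the 7 found, with starts 194 to 248 bases apart, 5 reached the dim level in both genes. In 3 of the 5, both values had the same direction, a count too small to set pairs apart. Of all genes, 44.5% were above 0 and 53.5% below. H2AC8 and its partner H2BC8 were both higher in SUDHL6 (1.30 and 0.57), and so were H2AC15 and H2BC15 (0.75 and 0.65). H2AC6 and H2BC4 were both nearly equal between the lines (0.12 and 0.08). H2AC17 (-0.52) and H2BC17 (0.26) went opposite ways. So did the values of H2AC25 (0.36) and H2BC26 (-0.76), but the order of H2AC25 is not established, and its difference was -0.01 with raised values.

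Of the 5 probe sets shared between genes, 2 reached the dim level, and their values cannot be assigned to 1 gene. The probe set of H2BC12 and H2BC12L measured 2.86 in SUDHL6 against 5.16 in HT, where it was at least 2.54-fold higher. That of H3C4 and H2AC7 stood at 4.08 in SUDHL6 and 2.92 in HT. Its SUDHL6 value lay under the HT dim level, so no fold is given. The other 3, of H2BC6 with H2BC9, of H2AC14 with H2AC13, and of H2BC18 with H3C13 and H2BP1, were dim. Near-identical copies can share probe sequence, and cross-hybridisation was not tested, so every value here may include signal from other copies.

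Non-histone genes between the chromosome 6 members lay on both sides of no difference, with the larger differences toward SUDHL6. Of 11 with a value, 5 were dim, and 0 of the other 6 were past a difference of 1, against 12.3% of all genes. The SUDHL6 value was the higher one in 4 of the 6, against 44.5% of all genes. TRIM38, a ubiquitin ligase gene, stood at 7.60 in SUDHL6 and 6.71 in HT, and HMGN4, a nucleosome-binding protein gene, at 8.41 in SUDHL6 and 7.65 in HT. BTN2A2, of the butyrophilin family, was at 5.02 in SUDHL6 and 4.37 in HT. The median of the 6 was 0.65, with BTN3A2 and BTN3A3 slightly below 0 and PRSS16, which reached the dim level only in SUDHL6, at 0.64. The SUDHL6 value of PRSS16 lay under the HT dim level, so its order is not established. With raised values the median of the 6 was 0.28, and 3 of the 6 were above 0, against 40.6% of all genes. The same 3 were then at least 1.5-fold higher in SUDHL6 and 0 in HT, against 25.1% of all genes in either direction. This count is too small to set the region apart. Gene dosage of the region was not measured, and its part in the result was not tested.

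In each of 5 lists of genes that process, regulate, place or accompany histones, 1 to 3 genes were past a difference of 1. These are 1 of 15, 2 of 7, 1 of 21, 1 of 7 and 3 of 24 genes in the order below, against 12.3% of all genes, and the lists are too short to set apart. In the list for histone mRNA processing, 15 of 19 genes had a value, all reaching the dim level, and the median was -0.19. SLBP, which binds the stem-loop, stood at 8.25 in SUDHL6 and 7.84 in HT. ERI1, an exonuclease that acts on the stem-loop end, was 2.56-fold higher in HT, at 5.82 in SUDHL6 and 7.18 in HT, and was the 1 member past 1. CPSF3, the endonuclease subunit that cuts histone pre-mRNA, measured 9.64 in SUDHL6 and 8.65 in HT, just short of 1.

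In the list for regulators of histone gene transcription, 7 of 12 genes had a value. Of these, 2 were past 1, both higher in HT (6.99% of all genes were). HINFP, the factor of the H4 element, stood at 5.59 in SUDHL6 and 6.83 in HT, 2.36-fold higher in HT. POU2AF1, a B cell coactivator of OCT factors, was 2.62-fold higher in HT, at 6.10 in SUDHL6 and 7.49 in HT. It was listed because OCT factors bind the octamer, and a role at histone genes is not shown here. Values were higher in SUDHL6 for 6 of 8 H4, 5 of 9 H2B and 5 of 8 H2A genes, against 44.5% of all genes. With raised values these counts were 5, 5 and 4, against 40.6% of all genes. Whether HINFP or POU2AF1 bears on these genes was not tested. CDK2, a kinase of S phase entry, stood at 7.48 in SUDHL6 and 7.31 in HT. The median of the 7 was -0.32.

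Histone chaperones had 21 of 24 genes with a value and a median of -0.21. ASF1A, a chaperone of H3 and H4, was the 1 gene past 1, 2.04-fold higher in HT, at 7.82 in SUDHL6 and 8.85 in HT. Its paralogue ASF1B stood at 6.48 in SUDHL6 and 6.25 in HT. Replacement histones, which can also be made outside S phase, had 8 of 12 genes with a value. Of these, 7 reached the dim level, with a median of -0.17. CENPA, the H3 variant of centromeres, was 2.19-fold higher in SUDHL6, at 7.07 against 5.94 in HT. H2AZ1 stood at 10.60 in SUDHL6 and 11.23 in HT, and H2AX at 5.28 in SUDHL6 and 5.97 in HT, both under 1. DNA replication genes, 24 of 29 with a value, had a median of 0.08, beside 0.12 for the histone genes. Of the 24, 15 were above 0 and 8 below, where 44.5% of all genes were above 0. RRM2 and MCM3 were past 1 in SUDHL6 and CDC45 in HT. RRM2 was 2.62-fold higher in SUDHL6, at 11.02 against 9.62 in HT, and MCM3 2.18-fold higher, at 8.65 against 7.52. CDC45, a helicase component, was 2.31-fold higher in HT, at 6.78 in SUDHL6 and 7.99 in HT.

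**Figure D5:**
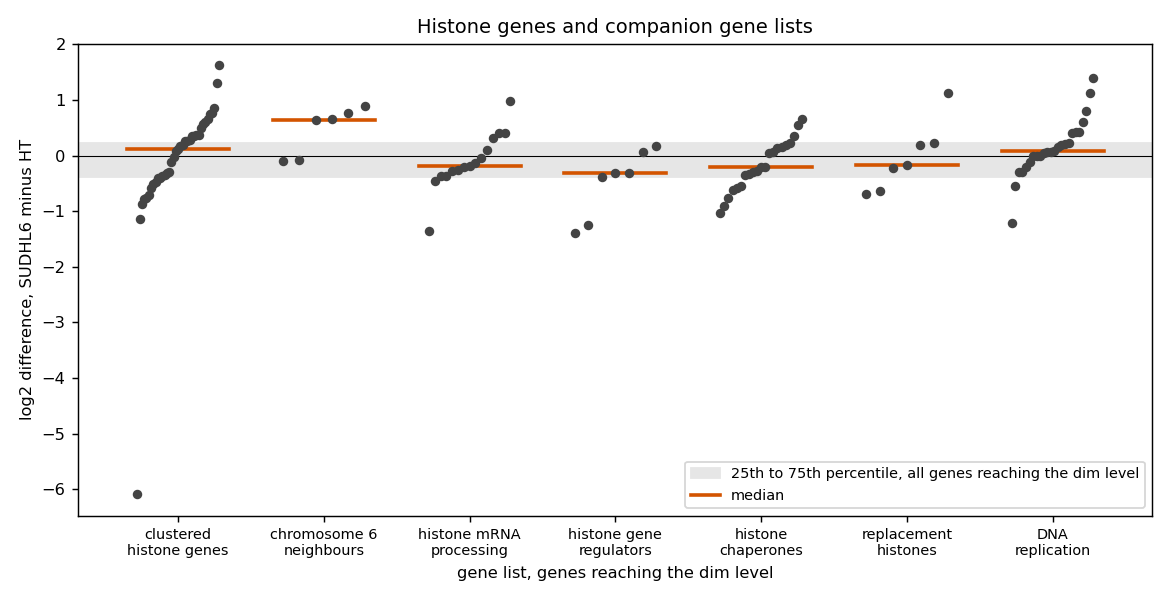
Log2 difference, SUDHL6 minus HT (vertical axis), of the genes reaching the dim level in the histone members, their chromosome 6 neighbours and 5 companion lists, with a bar at each median and a grey band for the central range of all genes. The neighbours have a median of 0.65, or 0.28 with raised values, and the other medians lie between -0.32 and 0.12.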

How the data were processed

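The authors deposited log2 expression values per probe set after RMA, which corrects background, normalizes arrays and summarises probes. Per the submitters' processing notes, the tools were RMA and Affymetrix Expression Console. No version, setting or genome build was given in the sources used here. Each line is 1 array, and the number of arrays limits the precision.

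From the deposited log2 values, the difference of SUDHL6 minus HT was taken for each probe set (Python 3.11.15, pandas 2.3.3, numpy 2.4.6). Platform symbols were updated by gene number to a RefSeq gene table of GRCh38.p14, and the probe set with the highest mean stood for a gene. Symbols gave 16840 named probe sets and 14232 genes. Where the lower value was under the dim level, it was replaced by that level in the fold. Every histone member reaching the dim level is named, and of each companion list up to 6 genes past a difference of 1, or else those with the highest mean. Genes named beyond this, such as SLBP, CPSF3, CDK2, ASF1B, H2AZ1 and H2AX, and the neighbours, were picked with their values in view. The members and lists were chosen with earlier results of these data known. Counting was tested on simulated data. Alternatives were quantile normalization, loess (statsmodels 0.14.6), other dim levels and thresholds, raised values and shared probe sets. Promoter sequences are RefSeq's. Protein sequences were not used here.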

Additional observations from a re-analysis of the deposited data

How the results depend on the processing

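The same 4 histone genes passed a difference of 1 under quantile normalization, loess, a dim level at the 99th percentile and raised values. Under these settings 10.7% to 13.8% of all genes passed it. No dim level gave 6 of 50, adding H2BC3 and H2BC10, against 8.97% of all genes. Including shared probe sets also gave 6, adding that of H2BC12 and H2BC12L and that of H3C4 and H2AC7. No fold is given for the latter. A 1.5-fold threshold gave 13 (7 in SUDHL6, 6 in HT), against 27.4% of all genes. With values also raised to the dim level it gave 11 (6 in SUDHL6, 5 in HT), against 25.1%. That alternative was chosen after seeing the data. A difference of 2 gave 1, H3C3 (0 in SUDHL6, 1 in HT), against 3.41% of all genes. Leaving out H3C3, chosen after seeing the data, left 1 gene higher in HT. H4C13 kept its call narrowly, at -1.02 (quantile) and -1.01 (loess), and H3C3 moved to -4.27 with raised values. The median of all 37 was 0.20 (quantile) and 0.21 (loess), and turned to -0.19 with no dim level and -0.014 with raised values. The HIST1 median was 0.25 (quantile), 0.24 (loess) and 0.081 (raised) and turned to -0.12 with no dim level, and the HIST2 and HIST3 median moved to -0.58 with the 99th percentile. By type, the H1 median moved to 0.29 (quantile) and 0.30 (loess), and the H3 median to -0.29 (quantile) and -0.28 (loess). H4 moved to 0.45 with the 99th percentile. H2A moved to 0.12 (99th percentile) and 0.054 (raised) and turned to -0.12 with no dim level. H2B moved to 0.18 (quantile) and 0.20 (loess), and turned to -0.16 with the 99th percentile or shared probe sets and -0.18 with no dim level. Medians turned with no dim level, the 99th percentile or shared probe sets rest on other sets of genes, by construction of those alternatives, and raised values shrink the differences of genes under the dim level in 1 line. The median of all genes was 0.00 after quantile normalization, 0.01 after loess, -0.04 with no dim level and -0.09 with raised values. The share of genes above 0 was 50.5% after quantile normalization, 51.3% after loess and 40.6% with raised values. No paired analysis was possible because each line has 1 array.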
